A study of Homo sapiens with 20 samples.

Results

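The genes described here are 10 residents of the lumen of the endoplasmic reticulum (ER), the compartment in which secreted and membrane proteins fold. They were taken by name, and all 10 were found among the 15531 genes that the deposited tables list. HSPA5, HSP90B1, HYOU1, SDF2L1 and MANF belong to the chaperone machinery, CALR is a lectin chaperone, PDIA3, PDIA4 and PDIA6 are protein disulfide isomerases, and CRELD2 is a small secretory-pathway protein with isomerase activity. RNA came from HCT116, a human colorectal carcinoma cell line, after 5 h or 12 h in 0.5% DMSO vehicle or in 1 of 4 compounds at 500 nM. These were chaetocin, chetomin, and for each a sulfide-depleted analog, here called MeS-chaetocin and MeS-chetomin (MeSChaetocin and MeSChetomin in the labels). There were 10 groups of 2 numbered libraries; the labels do not say how the cultures were separated, so p-values measure the spread between these libraries, which may be technical. The series is titled as a study of metal response genes; the ER genes were read from the same tables.

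HSPA5 encodes BiP, the HSP70 chaperone of the ER, which holds unfolded chains and also keeps the stress sensors IRE1 (ERN1), PERK (EIF2AK3) and ATF6 inactive. When unfolded protein builds up, the sensors start the unfolded protein response, in which cleaved ATF6 and spliced XBP1 raise the transcription of chaperones while PERK signals through ATF4 and DDIT3. Disulfide isomerases form, break and reshuffle the disulfide bonds of folding proteins. Chaetocin and chetomin are fungal epidithiodiketopiperazines, whose rings carry a disulfide bridge.

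The promoters are shown first because the ER stress response element (ERSE), the DNA element bound by ATF6 together with NF-Y, was defined in genes of this kind. ERSE was searched as CCAAT, any 9 bases, then CCACG, and ERSE-II as ATTGG, any 1 base, then CCACG, on both strands of the 300 bases from 250 before to 50 after each start in the RefSeq promoter table (GRCh38.p14). Of the 10 genes, 9 were in that table, with 11 windows; PDIA3 had no entry. ERSE matched in 5 of the 11 windows, each of a different gene, against 27 of all 35116 windows (0.0769%), which include the 11. ERSE-II matched in 2 of the 11, of 2 other genes, against 19 of all windows (0.0541%). Over windows of genes that the deposited tables list, the shares were 0.129% and 0.09%. In the lines that follow, each element is printed 5′ to 3′ on the gene's strand with 10 bases on either side and its parts in capitals; a match on the opposite strand reads CGTGG first.
HSPA5, chr9:125241381-125241419, minus strand: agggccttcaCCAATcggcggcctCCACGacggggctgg
HSP90B1, chr12:103930206-103930244, plus strand: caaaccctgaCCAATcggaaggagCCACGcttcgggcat
HSP90B1, chr12:103930311-103930349, plus strand: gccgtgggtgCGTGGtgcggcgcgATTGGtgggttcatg
PDIA6, chr2:10812843-10812881, minus strand: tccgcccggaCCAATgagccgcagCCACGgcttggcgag
CRELD2, chr22:49918544-49918582, plus strand: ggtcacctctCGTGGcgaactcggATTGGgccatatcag
CALR, chr19:12938374-12938412, plus strand: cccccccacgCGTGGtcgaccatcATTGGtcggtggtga
HYOU1, chr11:119057264-119057294, minus strand: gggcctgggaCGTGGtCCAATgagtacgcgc
SDF2L1, chr22:21642104-21642134, plus strand: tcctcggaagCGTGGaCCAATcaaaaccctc
A further ERSE-II lay in the HYOU1 window from base -185 to -175 before the start, where it overlapped the only UPRE core (TGACGTGG) found in these genes, from -188 to -181. MANF and PDIA4 held neither ERSE nor ERSE-II, and none of their windows held the heat shock element (GAA, 2 bases, TTC, 2 bases, GAA), which 0.49% of all windows held. The separate parts, which every ERSE also contains, were each in 10 of the 11 windows of these genes. They were common elsewhere, with CCAAT in 34.6% and CCACG in 38.1% of all windows. Over windows of genes that the deposited tables list, these shares were 34.3% and 47.6%. The ATF/CRE core TGACG was in 4 of the 11 windows, of 4 genes, and in 24.6% of all windows. A match is a description of the letters and not evidence of binding.

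Values are the deposited normalized signal, 1 per library, which the file headers name neither as TPM nor as FPKM; it summed to between 875371 and 1170802 per library over 14222 genes at 5 h and 15381 at 12 h. The ratio of the authors' mean CPM to this signal rose with exon length over 8648 genes (Spearman rho 0.596, a description across genes), so the signal is scaled by length and levels of different genes may be set side by side. Read counts per library are not given, so no counting interval is stated. Colon epithelial markers summed to between 3256 and 5487 signal units per library (6 of 8 listed), most of it from KRT8, KRT18 and KRT19, with CDX1 and VIL1 not in the tables used here. CDX2, an intestinal transcription factor, read 14.2 and 13.7 units in vehicle at 12 h, 3.11 and 3.17 with chaetocin, and 3.64 and 2.40 with chetomin. Markers of other cell types (4 of 10 listed at 5 h, 5 of 10 at 12 h) summed to 2.1 to 4.16 units in vehicle at 5 h against 7.55 to 10.8 with chaetocin or chetomin, 4.04 to 7.45 with MeS-chaetocin and 5.59 to 8.55 with MeS-chetomin, and at 12 h to 8.4 to 12.0 in vehicle against 18.5 to 21.4 with chaetocin, up to 17.4 with chetomin and up to 17.5 with MeS-chaetocin. PTPRC, CD3E, GFAP and HBB were among those not in the tables used here; the part of these markers in the results was not tested. Vehicle replicate 1 at 5 h stood apart, with 20.29% of its signal in 10 genes, against 9.42% to 17.29% in the other libraries.

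In vehicle, CALR was the most abundant of the 10 transcripts, at 699 ± 41.9 signal units (mean ± SD, n = 2) at 5 h and 645 ± 53.7 at 12 h. HSP90B1 followed at 471 ± 41.2 and 404 ± 92.8. At 5 h the next were HSPA5 at 326 ± 16.5 and PDIA3 at 248 ± 14.0, and then MANF and SDF2L1, PDIA6 and PDIA4, and HYOU1 and CRELD2, neighbours whose replicates overlapped within each of these 3 couples. SDF2L1 and PDIA6 overlapped too, with replicate 2 at 135 and 138 units. CRELD2 was lowest at both times, at 64.7 ± 9.21 and 53.5 ± 12.7 units. After 12 h with chaetocin the order had changed: HSP90B1 was highest at 974 ± 49.8, CALR and HSPA5 came next at 679 ± 30.7 and 662 ± 9.40 with overlapping replicates, and SDF2L1 was lowest at 109 ± 12.0. The 10 transcripts together took 0.2401% and 0.2417% of the library signal in vehicle at 12 h and 0.3927% and 0.3934% with chaetocin.

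**Figure D1:**
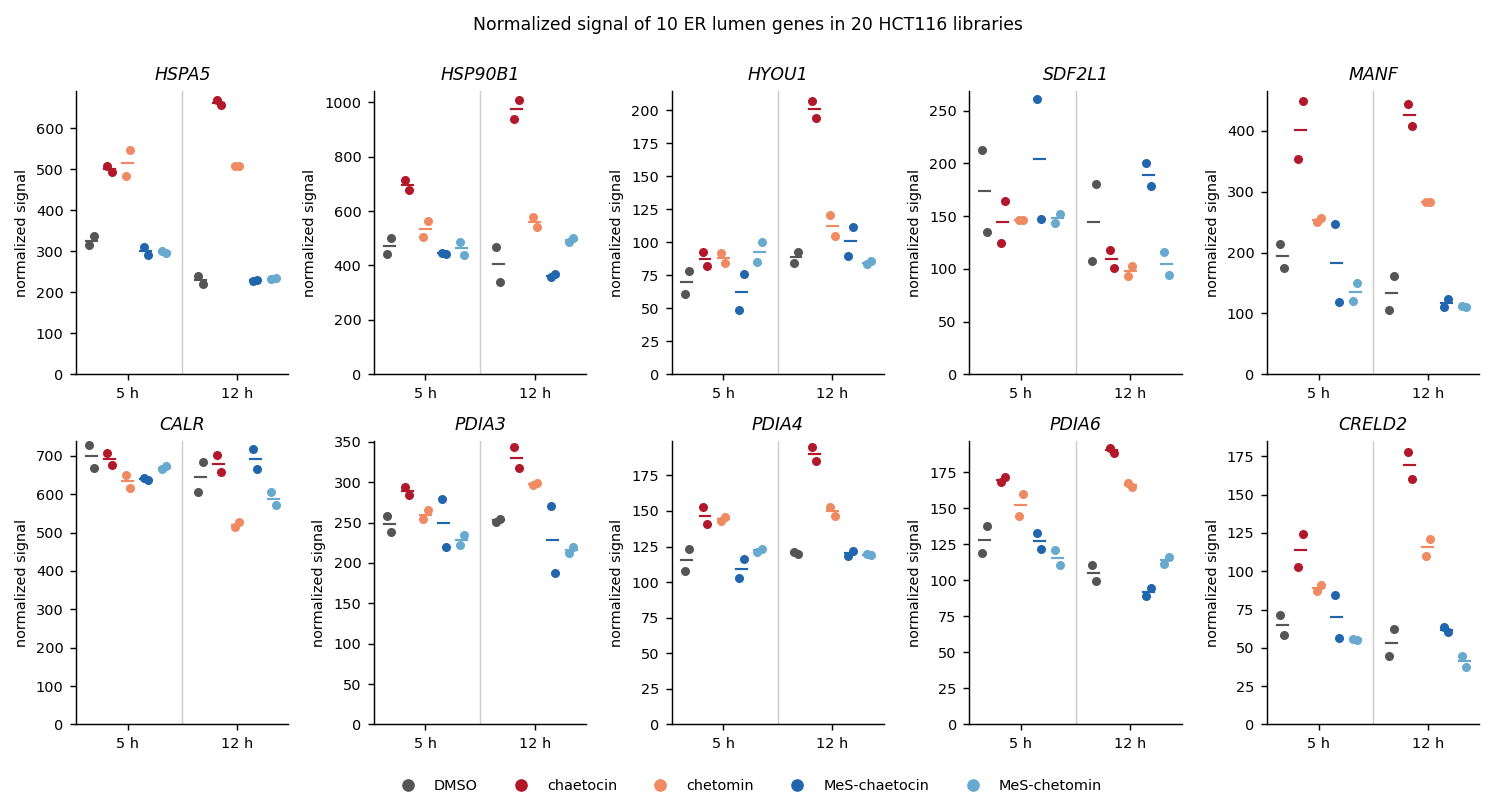
Normalized signal (vertical axes, linear and starting at 0) of the 10 genes in each of 20 libraries, by time and compound. Points are libraries and short lines are means of 2 libraries; at 12 h both chaetocin libraries lie above both vehicle libraries in 8 panels, while CALR and SDF2L1 overlap with vehicle.

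Chaetocin for 12 h gave higher RNA of 8 of the 10 genes and lower RNA of none (limma, Benjamini-Hochberg adjusted p under 0.05 over 15377 genes, two-sided). Of all genes tested, 47% were called in the same comparison, 20.2% higher and 26.8% lower (3102 and 4128 genes). On the authors' CPM scale that balance turned, with 4349 genes higher and 2159 lower, and 9 of the 10 were called higher. The 8 rose by 0.38 to 1.69 on the log2(signal + 1) scale, and the median over the 10 was 1.01 against -0.16 over all genes. In bulk RNA a change in cell make-up and a change in RNA per cell cannot be told apart. Fewer of the 10 were called without either chaetocin library, where the lone library is assumed to vary like the vehicle. The share over all genes in those fits is not given, so the fall is no result about these genes. Across all refits the difference was 0.33 to 0.74 for PDIA3, 1.46 to 1.88 for HSPA5 and 1.39 to 2.05 for MANF.

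Among the HSP70 and HSP90 chaperones, HSPA5 (ENSG00000044574, GRCh38 chr9:125234853-125241330, minus strand) read 241 and 220 units in vehicle at 12 h, 669 and 656 with chaetocin, and 507 and 508 with chetomin. Both compounds stood far above vehicle with no overlap, and chaetocin stood above chetomin in every library. The log2 difference from vehicle was 1.52 ± 0.12 (SE, adjusted p = 0.000565, limma) with chaetocin and 1.14 ± 0.15 (adjusted p = 0.00135, limma) with chetomin. MeS-chaetocin gave 227 and 231 units and MeS-chetomin 232 and 234, all between the vehicle libraries.

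HSP90B1 (ENSG00000166598, chr12:103930107-103953645, plus strand) encodes GRP94, the HSP90 of the ER, which finishes the folding of a select set of secreted proteins and receptors. Its signal at 12 h was 469 and 338 in vehicle, 938 and 1009 with chaetocin, and 577 and 543 with chetomin. The chaetocin libraries were clear of all others, whereas the chetomin libraries were above a vehicle pair that itself spread widely. Both MeS-chetomin libraries, at 486 and 501 units, were above that pair too. The difference was 1.29 ± 0.18 (adjusted p = 0.00258, limma) with chaetocin and 0.49 ± 0.19 (adjusted p = 0.0776, limma) with chetomin, which was not called. The listed genes C12orf73 and TTC41P overlap HSP90B1 on the opposite strand; the kit marks strand, but no source used here gives the strand setting of the counting, so reads of such partners cannot be told apart.

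HYOU1 (ENSG00000149428, chr11:119044189-119057202, minus strand) encodes GRP170, which releases ADP from BiP and binds unfolded chains itself. It read 84.2 and 92.9 units in vehicle at 12 h, 207 and 195 with chaetocin, and 121 and 105 with chetomin. With chaetocin it rose by 1.17 ± 0.13 (adjusted p = 0.00117, limma); with chetomin the difference was 0.34 ± 0.16 (adjusted p = 0.13, limma). The chetomin libraries were above both vehicle libraries, yet 1 MeS-chaetocin library, at 112 units, lay among them.

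MANF (ENSG00000145050, chr3:51385047-51389397, plus strand), a small protein that binds BiP and is partly secreted under ER stress, had the largest estimate with chaetocin among the 10. Vehicle read 106 and 162 units at 12 h, chaetocin 444 and 408, and chetomin 283 and 283. Even the higher vehicle library was far below every chaetocin and chetomin library. The difference was 1.69 ± 0.21 (adjusted p = 0.0017, limma) with chaetocin and 1.10 ± 0.21 (adjusted p = 0.00578, limma) with chetomin.

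CRELD2 (ENSG00000184164, chr22:49918167-49927540, plus strand) moved with MANF. It read 44.5 and 62.5 units in vehicle at 12 h, 178 and 160.0 with chaetocin, and 110 and 121 with chetomin, again with no overlap. It rose by 1.66 ± 0.19 (adjusted p = 0.0013, limma) and by 1.12 ± 0.20 (adjusted p = 0.00434, limma). ALG12, a listed gene, overlaps CRELD2 on the opposite strand.

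The 3 disulfide isomerases had smaller differences with chaetocin at 12 h than the called chaperones, in the order PDIA6, PDIA4, PDIA3 with both compounds; the order was not tested. PDIA6 (ENSG00000143870, chr2:10783391-10837977, minus strand), an isomerase that also acts on the disulfide state of the sensors, read 111 and 99.7 units in vehicle, 192 and 189 with chaetocin and 168 and 165 with chetomin. It was called with both compounds, at 0.85 ± 0.13 (adjusted p = 0.00312, limma) and 0.66 ± 0.15 (adjusted p = 0.0127, limma). ATP6V1C2 overlaps it on the opposite strand.

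PDIA4 (ENSG00000155660, chr7:149003062-149028641, minus strand) is ERp72, an isomerase with more than the usual number of active domains. In vehicle at 12 h it was nearly constant, at 121 and 119.8 units, and read 195 and 185 with chaetocin and 153 and 146 with chetomin. Every chaetocin and chetomin library was above vehicle. Chaetocin gave 0.65 ± 0.12 (adjusted p = 0.00668, limma), which was called, and chetomin 0.31 ± 0.15 (adjusted p = 0.133, limma), which was not.

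PDIA3 (ENSG00000167004, chr15:43746392-43773279, plus strand) is ERp57, which works on glycoproteins held by calnexin and calreticulin. It read 251 and 255 units in vehicle at 12 h, 344 and 318 with chaetocin, and 296 and 299 with chetomin. The groups did not overlap, but the chaetocin difference was the smallest of the 8 called: 0.38 ± 0.12 (adjusted p = 0.0396, limma) with chaetocin and 0.23 ± 0.15 (adjusted p = 0.24, limma) with chetomin. The chaetocin call was lost without the variance trend. The authors' deposited table, in CPM, gives higher log2 fold changes for this gene, 0.96 and 0.86, as it does for all 10 genes with both compounds at 12 h. Its pseudogene PDIA3P1 and the opposite-strand genes ELL3 and CATSPER2P1 are listed too, so its reads are uncertain.

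CALR and SDF2L1 did not pass the test against vehicle in either direction. CALR (ENSG00000179218, chr19:12938578-12944489, plus strand), the calcium-binding lectin chaperone calreticulin, read 607 and 683 units in vehicle at 12 h, 701 and 657 with chaetocin, and 515 and 527 with chetomin. Chaetocin thus overlapped with vehicle, at 0.08 ± 0.13 (adjusted p = 0.655, limma), and both chetomin libraries were below it, at -0.31 ± 0.16 (adjusted p = 0.159, limma). Rescaled to the authors' CPM scale, the chaetocin difference was 0.44 and was called (adjusted p = 0.0358, limma), and the chetomin difference turned to 0.02.

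SDF2L1 (ENSG00000128228, chr22:21642261-21644298, plus strand), a partner of the BiP co-chaperone DNAJB11, varied widely within groups. Vehicle read 107 and 181 units at 12 h, chaetocin 118 and 100.6, and chetomin 93.3 and 103. Both chetomin libraries were below vehicle and chaetocin overlapped with it. The differences were -0.35 ± 0.25 (adjusted p = 0.281, limma) with chaetocin and -0.51 ± 0.24 (adjusted p = 0.129, limma) with chetomin; on the CPM scale they were 0.00 and -0.18. Without vehicle replicate 1 at 12 h they were -0.73 and -0.88 and were called (adjusted p = 0.00852 and 0.0104, limma), and without vehicle replicate 2 the chaetocin difference was 0.02. Of the 8 genes called with chaetocin, HSPA5, HSP90B1, HYOU1, PDIA6 and CRELD2 have a window with ERSE or ERSE-II, MANF and PDIA4 have none, and PDIA3 had no entry; CALR and SDF2L1, which were not called, have one.

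**Figure D2:**
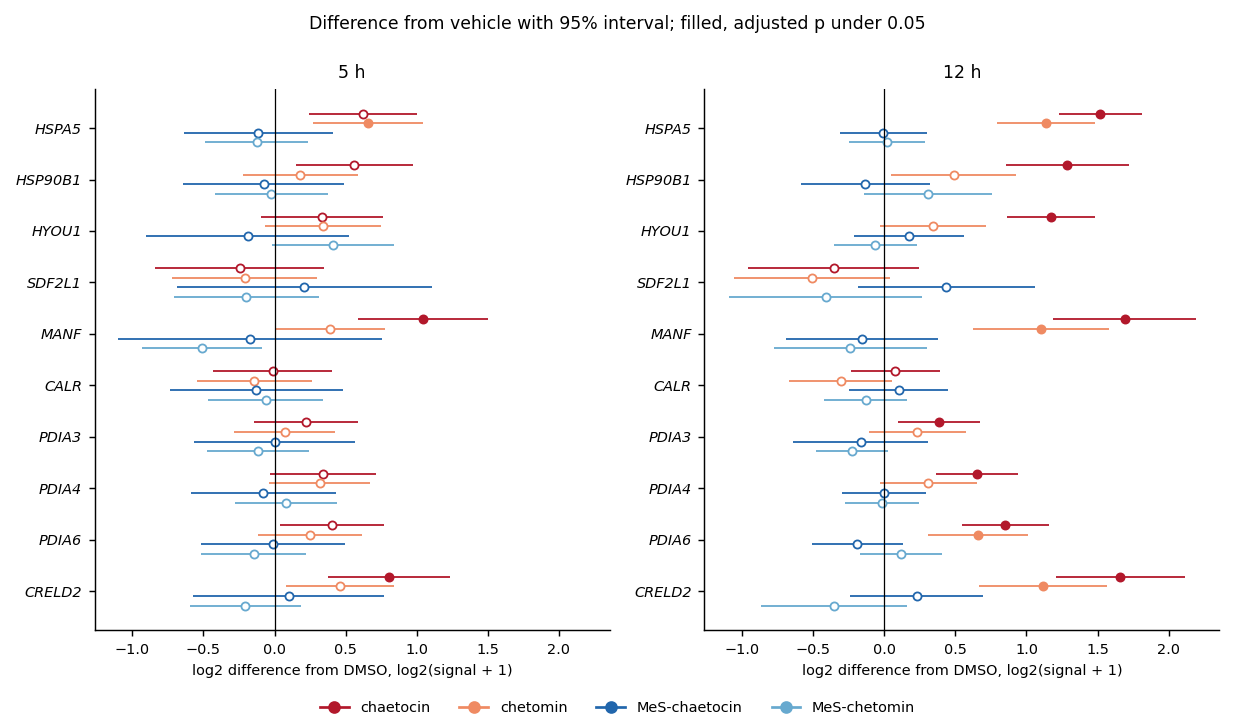
Log2 difference from DMSO on the log2(signal + 1) scale (horizontal axis) with its 95% interval for each gene, at 5 h and 12 h; colours are the 4 compounds, and filled points have a limma adjusted p under 0.05. Chaetocin has 8 filled points and chetomin 4 at 12 h, 2 and 1 at 5 h, and none for the MeS compounds.

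For chetomin at 12 h, HSPA5, CRELD2, MANF and PDIA6 were called higher, 4 of 10, and none lower; of 15381 genes tested, 35.8% were called, 15.6% higher and 20.2% lower (2397 and 3106 genes). On the authors' CPM scale 3512 genes were higher and 1396 lower, and 8 of the 10 were called higher. CALR was called lower with the spread shared by all libraries. The median over the 10 genes was 0.42 against -0.15 over all genes. Both chetomin libraries were above both vehicle libraries for 8 of 10 genes, as they were for 28.2% of all genes, and chaetocin gave 8 of 10 against 30.3%. The limma calls with chetomin were not kept when either chetomin library was left out, a fit with 1 library in that arm. Across all refits the estimates were 1.07 to 1.46 for HSPA5, 0.80 to 1.43 for MANF, 0.88 to 1.44 for CRELD2 and 0.59 to 0.98 for PDIA6. The authors' deposited table, scaled as CPM, has 9 of the 10 genes at a q-value under 0.05 and higher with chaetocin, all but SDF2L1, where 35.1% of all genes were higher and 25.2% lower. It has 8 higher with chetomin, all but CALR and SDF2L1, where 31.7% were higher and 21.7% lower.

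After 5 h fewer of the genes passed the test. MANF was at 213 and 174 units in vehicle and 354 and 449 with chaetocin, and rose by 1.04 ± 0.19 (adjusted p = 0.0207, limma). CRELD2 was at 71.2 and 58.2 units in vehicle and 103 and 124 with chaetocin, and rose by 0.81 ± 0.18 (adjusted p = 0.0353, limma). These were the 2 of 10 called with chaetocin, where 11.1% of 14217 genes were called, 4.56% higher and 6.53% lower; on the authors' CPM scale 877 genes were higher and 504 lower, and 4 of the 10 were called.

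HSPA5 at 5 h read 314 and 337 units in vehicle, 509 and 494 with chaetocin, and 484 and 546 with chetomin. Every treated library was above vehicle, and the chetomin and chaetocin ranges overlapped. The difference was 0.66 ± 0.17 with chetomin (adjusted p = 0.0355, limma), the 1 gene of 10 called there (15.7% of all genes, 7.02% higher and 8.71% lower; 1399 and 654 genes on the authors' CPM scale, with 3 of the 10 higher), and 0.62 ± 0.16 with chaetocin (adjusted p = 0.0532, limma), which missed the threshold. HSP90B1, at 442 and 500.0 units in vehicle, read 712 and 676 with chaetocin (0.56 ± 0.17, adjusted p = 0.0867, limma) and 505 and 563 with chetomin (0.18 ± 0.17, adjusted p = 0.524, limma).

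With chetomin MANF was at 0.39 and CRELD2 at 0.46, not called (adjusted p = 0.154 and 0.101, limma). Of the remaining genes at 5 h, the isomerases and HYOU1 had positive differences of 0.07 to 0.40 on the log2 scale with either compound, and CALR and SDF2L1 differences of -0.24 to -0.01; none was called. HYOU1 read 61.0 and 78.6 units in vehicle, 92.9 and 82.4 with chaetocin and 92.1 and 84.1 with chetomin. With MeS-chetomin it was also above vehicle, at 84.9 and 100.3 units, and with MeS-chaetocin it read 48.4 and 75.8. Both chaetocin libraries were above both vehicle libraries for 8 of 10 genes, against 20.5% of all genes. Which of the 10 were called changed when a library was left out, also without vehicle replicate 1, which stood apart. No call stood without a library of the compound. The share over all genes in those fits is not given. Across all refits the chaetocin difference was 0.87 to 1.27 for MANF and 0.66 to 1.03 for CRELD2. With chetomin it was 0.57 to 0.89 for HSPA5 and -0.53 to 0.11 for SDF2L1. The authors' deposited table has 8 of the 10 at a q-value under 0.05 and higher with chaetocin at 5 h (14.7% of all genes higher, 14.8% lower) and 6 with chetomin (17.2% and 14%).

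Whether the effect of a compound differed between the times was tested as an interaction. HSPA5 passed for chaetocin, whose effect was larger at 12 h by 0.90 ± 0.20 (adjusted p = 0.0353, limma), against 3.47% of 14066 genes called higher and 0.903% lower. The HSPA5 call was kept without vehicle replicate 1 or 2 at 5 h and was lost without any other 1 of the 8 libraries (adjusted p up to 0.169, limma). HYOU1 differed by 0.84 ± 0.23 (adjusted p = 0.0756, limma), CRELD2 by 0.86 ± 0.28 (adjusted p = 0.118, limma) and HSP90B1 by 0.72 ± 0.26 (adjusted p = 0.147, limma), none of them called. No gene of the 10 passed for chetomin, where 0.327% of all genes were called higher and 0.171% lower, and the differences ran from -0.29 for SDF2L1 to 0.71 for MANF. Vehicle HSPA5 was at 326 units at 5 h and 230.4 at 12 h; tables of the 2 times may be scaled apart and this was not tested.

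Neither MeS compound called any of the 10 genes at either time. At 12 h the differences from vehicle ran from -0.19 to 0.44 with MeS-chaetocin, the extremes being PDIA6 and SDF2L1, and from -0.41 to 0.31 with MeS-chetomin, the extremes being SDF2L1 and HSP90B1. For HSPA5 the 95% interval at 12 h was -0.31 to 0.30 with MeS-chaetocin and -0.25 to 0.29 with MeS-chetomin. At 5 h these intervals were wider, -0.64 to 0.41 and -0.49 to 0.24. MANF with MeS-chetomin at 5 h was at 121 and 150.5 units against 213 and 174 in vehicle, a difference of -0.51 ± 0.18 (adjusted p = 0.279, limma). Over all genes, limma called 0 with MeS-chaetocin at 5 h (105 genes at an unadjusted p under 0.05), 0 with MeS-chaetocin at 12 h (756) and 0 with MeS-chetomin at 12 h (416). With MeS-chetomin at 5 h it called 20 (0.141%, of which 0.0776% higher and 0.0635% lower), where 2290 genes (16.1%) had an unadjusted p under 0.05 and the median of all genes was 0.11. Without vehicle replicate 1 it called 0 there and without vehicle replicate 2 it called 1068, in both cases none of the 10. The authors' deposited table has 0 of the 10 genes at a q-value under 0.05 with either MeS compound.

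Each compound was then set against its analog at the same dose and time, with vehicle libraries in the fit for the estimate of the spread. These comparisons share libraries with those against vehicle and are no separate evidence. At 12 h chaetocin was above MeS-chaetocin for the 8 genes named before, at 0.55 (PDIA3) to 1.85 (MANF), where 21.4% of all genes were called higher. The PDIA3 call was lost without chaetocin replicate 1 or 2 or MeS-chaetocin replicate 2 (adjusted p up to 0.169, limma) and without the variance trend (adjusted p = 0.0509, limma). SDF2L1 was lower by -0.79 ± 0.23 (adjusted p = 0.0225, limma), at 118 and 100.6 units against 200.0 and 179, with 32% of all genes called lower; on the CPM scale, with median-of-ratios scaling, or without any 1 of these 4 libraries, SDF2L1 was not called. CALR differed by -0.02, with an interval of -0.30 to 0.25.

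Chetomin was above MeS-chetomin at 12 h for 7 genes, where 17.9% of all genes were called higher and 29.2% lower. CRELD2 differed by 1.47 ± 0.18 (adjusted p = 0.000826, limma), MANF by 1.34 ± 0.18 (adjusted p = 0.00134, limma) and HSPA5 by 1.12 ± 0.11 (adjusted p = 0.000307, limma). PDIA6, PDIA3, HYOU1 and PDIA4 differed by 0.33 to 0.54, also called. HSP90B1, CALR and SDF2L1 were not called, at 0.18, -0.18 and -0.09. Fewer of these genes were called without MeS-chetomin replicate 1 or replicate 2, or without chetomin replicate 2. The share over all genes in those fits is not given, so the fall is no result about these genes.

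At 5 h HSPA5 was called in both comparisons, at 0.74 ± 0.16 for chaetocin over MeS-chaetocin (adjusted p = 0.0478, limma) and 0.78 ± 0.13 for chetomin over MeS-chetomin (adjusted p = 0.00391, limma). For chaetocin it was the 1 gene of 10, where 6.33% of all genes were called, 2.92% higher and 3.41% lower. The HSPA5 call was lost without any 1 of the 6 libraries; without MeS-chaetocin replicate 1, MANF was called in its place (1.74, adjusted p = 0.02, limma). MANF at 0.91 ± 0.16 (adjusted p = 0.00455, limma) and CRELD2 at 0.67 ± 0.14 (adjusted p = 0.00917, limma) were called for chetomin too, making 3 of 10, where 8.77% of all genes were called higher and 23.9% lower. More of the 10 were called without vehicle replicate 1 or 2, where the share over all genes is not given. The CRELD2 call was lost without any 1 of the chetomin or MeS-chetomin libraries. Its difference was 0.59 to 1.03 across all refits. MANF was not called with the spread shared by all libraries (adjusted p = 0.0621, limma). The 2 MeS-chaetocin libraries at 5 h lay far apart for MANF, at 247 and 118 units, and for SDF2L1, at 261 and 148.

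**Figure D3:**
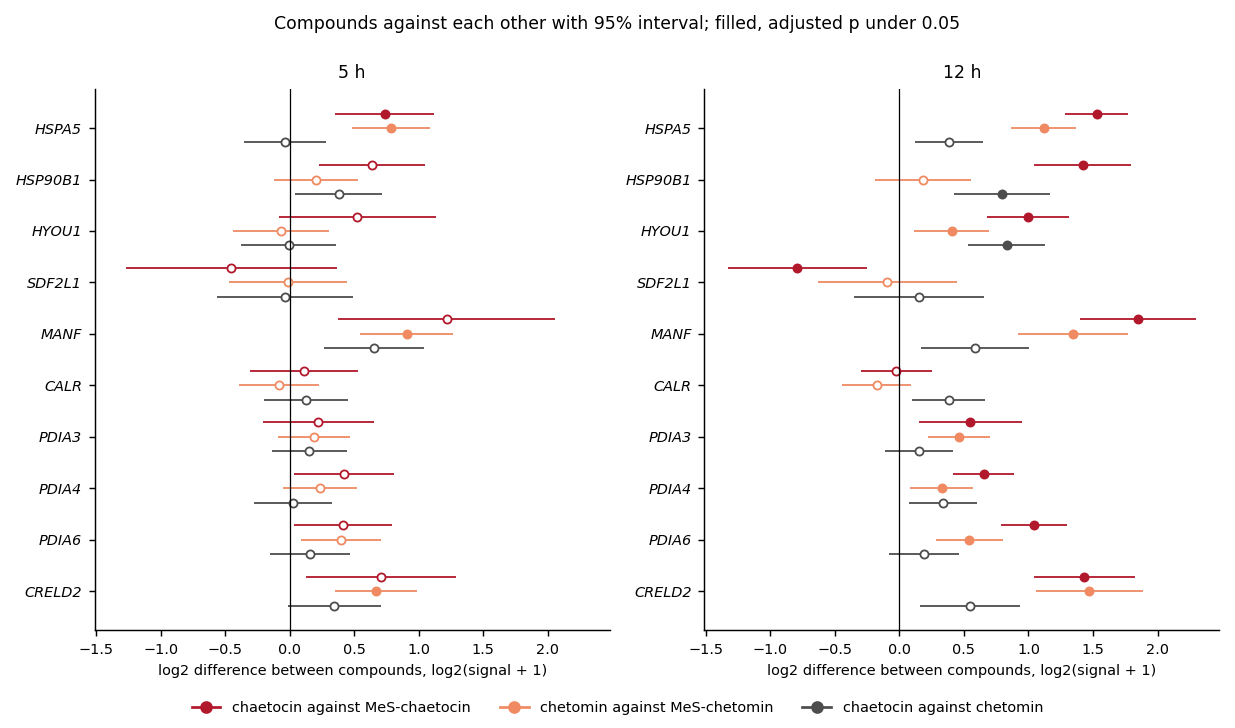
Log2 differences between compounds at the same dose and time (horizontal axis, log2(signal + 1) scale) with 95% intervals, for each gene at 5 h and 12 h; filled points have a limma adjusted p under 0.05. At 12 h chaetocin and chetomin differ in HYOU1 and HSP90B1, while SDF2L1, in chaetocin against MeS-chaetocin, is the 1 gene with a filled point below 0.

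Chaetocin and chetomin differed in HYOU1 and HSP90B1 at 12 h. HYOU1 was higher with chaetocin by 0.83 ± 0.13 (adjusted p = 0.0115, limma) and HSP90B1 by 0.80 ± 0.16 (adjusted p = 0.0307, limma), 2 of 10 genes against 3.42% of all genes called higher and 1.28% lower. The libraries did not overlap, with 195 to 207 units against 105 to 121 for HYOU1, and 938 to 1009 against 543 to 577 for HSP90B1. Both calls were lost when any 1 library of either compound was left out. Across all refits the difference was 0.73 to 0.93 for HYOU1 and 0.75 to 0.85 for HSP90B1.

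For the other 8 genes the 12 h difference between chaetocin and chetomin was positive but not called, from 0.15 to 0.59. The intervals for MANF (0.17 to 1.01) and CRELD2 (0.16 to 0.93) leave room for a sizeable difference. At 5 h none of the 10 was called, where 0.767% of all genes were called, 0.127% higher and 0.64% lower. MANF differed by 0.65 ± 0.17 (adjusted p = 0.162, limma) and HSPA5 by -0.04, with an interval of -0.35 to 0.28. Between the MeS compounds none of the 10 was called at either time, with 0 of all genes called by limma at 5 h (558 at an unadjusted p under 0.05) and 1 at 12 h, higher with MeS-chaetocin (0.0066%). At 12 h SDF2L1, CRELD2, HSP90B1 and PDIA6 passed only when a vehicle library was left out. The share over all genes in those fits is not given, so this is no result about these genes. Across all refits the difference of MeS-chaetocin from MeS-chetomin was 0.70 to 1.00 for SDF2L1 and 0.47 to 0.70 for CRELD2. It was -0.47 to -0.33 for HSP90B1 and -0.35 to -0.20 for PDIA6.

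Across the 20 libraries, with each value centred on the vehicle mean of its time, 8 of the 10 genes varied together. The correlation of each gene with the mean of the other 9 was 0.962 for CRELD2, 0.94 for MANF, 0.933 for HSPA5, 0.893 for PDIA4, 0.887 for PDIA6, 0.831 for HSP90B1, 0.81 for PDIA3 and 0.70 for HYOU1. CALR stood at 0.051 and SDF2L1 at -0.386. These are descriptions over 20 libraries that share treatments and a scaling. The share of all genes that vary in this way is not given, and non-member genes reached r of up to 0.979 with the mean of the 10. HSPA5 with PDIA6, at 0.962, and CRELD2 with MANF, at 0.958, were the closest couples, and CALR with SDF2L1 was at 0.531.

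**Figure D4:**
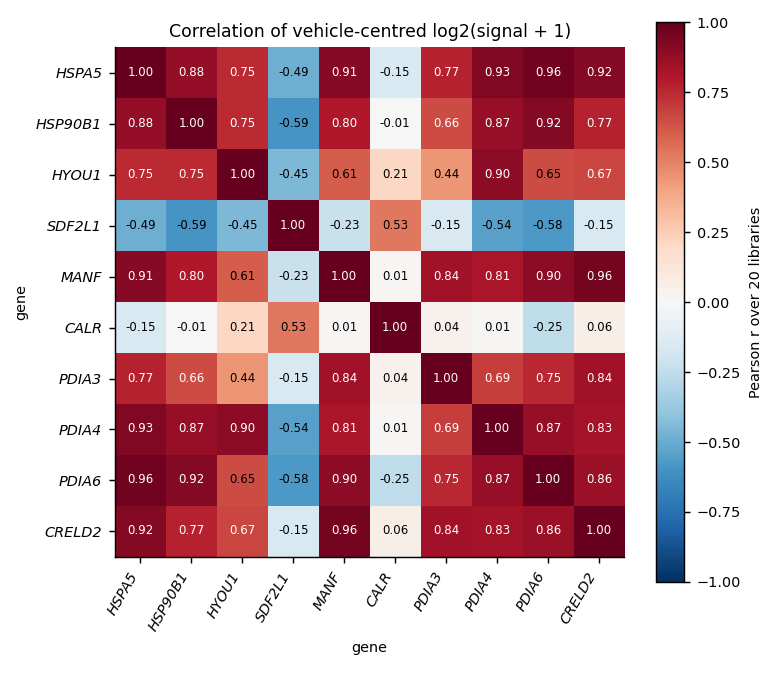
Pearson r between genes (rows and columns) over 20 libraries of log2(signal + 1), each gene centred on the vehicle mean of its time; colour runs from -1 to 1. CALR and SDF2L1 form pale or blue rows against the other 8 genes and stand at 0.53 with each other.

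The non-member genes most like the mean of the 10, among 6835 with a mean signal of at least 10, were NUDC (r = 0.979), ALYREF (0.976), CDK11B (0.973), CYSRT1 (0.973), UBE2M (0.972), CHMP2A (0.971), STX10 (0.97), UPF3A (0.969), SH3BP5L (0.969) and NCAPH2 (0.964). None of these is in the ER lists. They were picked over the treated libraries, so their differences are descriptions that the choice fixes in part. All 10 were called higher with chaetocin at 12 h, with log2 differences from 1.08 for NUDC and CDK11B to 5.03 for CYSRT1. With chetomin at 12 h 9 were called higher, CDK11B being the exception (0.42, adjusted p = 0.0916, limma).

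The other genes of ER folding had calls in both directions. Of 22 further chaperones and cofactors, 7 were higher and 5 lower with chaetocin at 12 h, and 6 and 3 with chetomin, beside 20.2% higher and 26.8% lower over all genes with chaetocin and 15.6% and 20.2% with chetomin. The medians were 0.08 and -0.01. DNAJB9 (ERdj4, a BiP co-chaperone) read 8.17 and 4.79 units in vehicle, 45.5 and 36.9 with chaetocin and 66.9 and 68.6 with chetomin, and rose by 2.53 ± 0.26 (adjusted p = 0.00101, limma) and 3.24 ± 0.25 (adjusted p = 0.000151, limma). DNAJB11 (ERdj3, another BiP co-chaperone) rose by 1.84 ± 0.19 with chaetocin (adjusted p = 0.00106, limma). CANX (calnexin, the membrane relative of CALR) rose by 1.02 ± 0.12 (adjusted p = 0.0016, limma) and 0.60 ± 0.16 (adjusted p = 0.0204, limma), and FKBP10, a collagen chaperone, fell by 1.81 (adjusted p = 0.00212, limma) and by 1.55 (adjusted p = 0.00346, limma) on the log2 scale.

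Among 19 other isomerases and redox enzymes, 3 were higher and 5 lower with chaetocin at 12 h, and 2 and 2 with chetomin, shares near or below those over all genes. P4HB, the archetypal disulfide isomerase PDI, went from 522 and 634 units in vehicle to 2212 and 2005 with chaetocin and 1274 and 1205 with chetomin. Its rise of 1.87 ± 0.15 (adjusted p = 0.000562, limma) and 1.11 ± 0.17 (adjusted p = 0.00263, limma) was larger in estimate than that of PDIA3, PDIA4 or PDIA6. ERO1A, the oxidase that recharges P4HB, fell by 0.55 with chaetocin (adjusted p = 0.0386, limma) and was at -0.37 ± 0.20 with chetomin (adjusted p = 0.173, limma). QSOX1, a sulfhydryl oxidase of the secretory pathway, fell by 1.01 with either compound (adjusted p = 0.00405 and 0.0054, limma).

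Of 17 sensors and transcription factors, 6 were higher and 3 lower with chaetocin at 12 h, and 6 and 2 with chetomin. The shares over all genes were 20.2% higher and 26.8% lower with chaetocin, and 15.6% and 20.2% with chetomin. XBP1, the factor activated by IRE1 splicing, read 40.2 and 39.9 units in vehicle, 161 and 149.9 with chaetocin and 198 and 192 with chetomin, and rose by 1.93 ± 0.13 (adjusted p = 0.000422, limma) and 2.26 ± 0.15 (adjusted p = 0.000103, limma). DDIT3 (CHOP) rose by 3.47 ± 0.14 (adjusted p = 0.000197, limma) and 3.71 ± 0.16 (adjusted p = 1.92e-05, limma), and ATF3 by 3.96 ± 0.14 (adjusted p = 0.00019, limma) and 4.30 ± 0.17 (adjusted p = 1.36e-05, limma). Of the sensors, EIF2AK3 rose by 2.49 ± 0.19 and 1.46 ± 0.23 (adjusted p = 0.000525 and 0.00273, limma), ATF6 fell by 1.24 and by 0.95 (adjusted p = 0.00796 and 0.0274, limma), and ERN1 was at 0.33 and 0.12 (adjusted p = 0.299 and 0.784, limma). ATF4 was not called at 12 h, at -0.36 and 0.18.

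At 5 h DDIT3, XBP1 and HERPUD1 had larger estimates than any of the 10 lumen genes. DDIT3 rose by 1.46 ± 0.21 with chaetocin (adjusted p = 0.0105, limma) and 2.57 ± 0.19 with chetomin (adjusted p = 0.000458, limma), and XBP1 by 1.29 ± 0.16 (adjusted p = 0.0074, limma) and 2.01 ± 0.16 (adjusted p = 0.00064, limma). ATF4 fell with chaetocin (adjusted p = 0.0108, limma) and was at -0.51 with chetomin (adjusted p = 0.0787, limma). HERPUD1, which anchors the ER degradation complex, rose by 1.46 ± 0.16 and 1.48 ± 0.16 (adjusted p = 0.00601 and 0.00148, limma). With chetomin 6 of the 17 sensors and factors were higher at 5 h and 1 lower, where 7.02% of all genes were higher and 8.71% lower, against 1 higher of the 10 lumen genes; this difference in counts was not tested.

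Genes of ER-associated degradation, which clears misfolded proteins, had 7 of 17 higher and 1 lower with chaetocin at 12 h and 4 and 1 with chetomin. Over all genes 20.2% were higher and 26.8% lower with chaetocin, and 15.6% and 20.2% with chetomin. HERPUD1 rose by 1.91 ± 0.17 (adjusted p = 0.000662, limma) and 1.69 ± 0.18 (adjusted p = 0.000445, limma), and SELENOK, a selenoprotein of the ER membrane, by 1.72 ± 0.21 and 1.93 ± 0.21 (adjusted p = 0.00159 and 0.000597, limma). Of 22 genes for translocation and N-glycosylation, 5 were higher and 1 lower with either compound. The higher calls were near the share over all genes and the lower calls below it. DAD1, a subunit of the oligosaccharyltransferase, rose by 0.92 ± 0.13 (adjusted p = 0.00235, limma) and 1.22 ± 0.16 (adjusted p = 0.00121, limma), and SEC62, of the translocon, fell by 0.69 with chaetocin (adjusted p = 0.0364, limma).

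**Figure D5:**
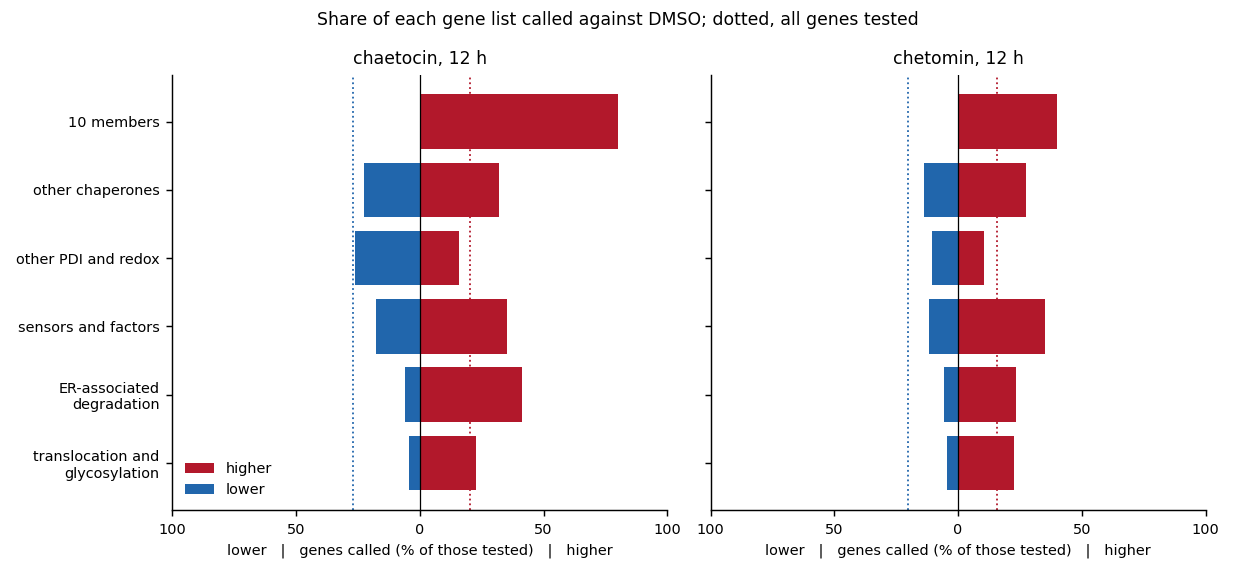
Share of the tested genes of each list called higher (red, right) or lower (blue, left) against DMSO at 12 h, in percent (horizontal axis), for chaetocin and chetomin; dotted lines give the shares over all genes tested, 20.2% and 15.6% higher and 26.8% and 20.2% lower. The 10 lumen genes have no lower calls with either compound, and the other lists have calls in both directions.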

How the data were processed

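Per the submitters' processing notes, reads were handled with STAR 2.5.2b, RSEM 1.3.3, edgeR and GRCh38; no source used here gives the annotation or strand setting. The deposited tables, 8 in all, hold a normalized signal per library and, as the authors' deposited comparison columns, a mean CPM per group, a log2 fold change, a p-value and a q-value. The 10 genes and the lists were chosen with earlier results of these data known. limma 3.58.1 (R 4.3.3) with a variance trend was fitted to log2(signal + 1) of all genes, two-sided, with Benjamini-Hochberg adjustment over all genes of a comparison and a call under 0.05; such differences understate changes of low genes. Comparisons with vehicle used 4 libraries, direct ones 6 and interactions 8. With 2 against 2 libraries an exact two-sided permutation test cannot go below 0.333, so calls rest on limma's pooled variance. Alternatives were other pseudocounts, a filter, scalings, variance models, a replicate block and leaving out each library. All 10 genes, up to 4 largest called genes per list and a preset group of stress genes are named. Positions are from GENCODE 29; promoter windows are RefSeq's. Protein sequences were not analysed here.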

Additional observations from a re-analysis of the deposited data

Results flagged for a closer look

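The effect of chaetocin on HSPA5 differed between the times by the interaction test: the log2 difference from vehicle was larger at 12 h than at 5 h by 0.90 ± 0.20 (adjusted p = 0.0353, limma, 8 libraries). All 4 chaetocin libraries were above the vehicle libraries of their time. The adjusted p ran from 0.000917 to 0.238 over 8 other settings, with 5 calls, and from 0.0448 to 0.169 over the 8 fits that leave out a library, with 2 calls.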

How the results depend on the processing

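Counts of the 10 genes called depended on scaling and on how the spread was estimated. None of 504 refits of called differences changed sign, but these refits reuse the same libraries, so a change was unlikely from the start. Differences that were not called did change sign. At 12 h SDF2L1 ran from -0.73 to 0.02 with chaetocin and CALR from -0.39 to 0.02 with chetomin. Calls over all genes moved with the scaling too, and their share is not given here beside each count. The counts in this section therefore describe the settings and are no result about the 10 genes alone. On the authors' CPM scale, which shifted all genes against vehicle by 0.23 to 0.36 for chaetocin and chetomin, 4 and 3 genes were higher at 5 h (chaetocin, chetomin), 8 with chetomin at 12 h, 2 and 7 for chaetocin and chetomin over their analogs at 5 h, none lower for chaetocin against MeS-chaetocin at 12 h, and 2 for the chaetocin interaction. Median-of-ratios scaling gave 7 for chetomin at 12 h, 0 and 5 over the analogs at 5 h, none lower for chaetocin against MeS-chaetocin at 12 h, and 2 for the interaction. With the spread shared by all libraries, 4 were higher with chaetocin at 5 h, 7 higher and 1 lower with chetomin at 12 h, 4 for chaetocin over MeS-chaetocin at 5 h, 5 for chaetocin over chetomin at 12 h and 2 for the interaction. Without the variance trend these were 1 for chaetocin and 0 for chetomin at 5 h, 0 for chaetocin over MeS-chaetocin at 5 h, 1 for chaetocin over chetomin at 12 h and 0 for the interaction. A pseudocount of 10 and a mean signal of at least 5 gave 0 for chaetocin over MeS-chaetocin at 5 h, the latter also 1 lower with chetomin at 12 h; a pseudocount of 0.1 gave 0 for the interaction.

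Leaving out each library in turn, members higher ranged from 0 to 3 for both compounds at 5 h, from 1 to 8 for chaetocin and 0 to 5 for chetomin at 12 h, from 0 to 1 and 2 to 5 over the analogs at 5 h, from 7 to 8 for chaetocin over MeS-chaetocin and 3 to 7 for chetomin over MeS-chetomin and 0 to 7 for chaetocin over chetomin at 12 h, from 0 to 2 between the MeS compounds at 12 h and 0 to 2 for the interaction. Members lower ranged from 0 to 1 for chetomin at 5 h, for both compounds at 12 h and for chaetocin against MeS-chaetocin at 12 h, and from 0 to 2 between the MeS compounds at 12 h. Each of these fits has 1 library fewer. Calls over all genes moved in such fits too, among others for chaetocin and chetomin against vehicle at both times. Their share is not given beside each range, so the ranges describe the fits and are no result about these genes alone. Why calls rose in some fits and fell in others was not tested.

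Replicate numbers share no batch in the labels, and same-numbered libraries deviated together unevenly (correlations between groups -0.72 to 0.761), so they were not taken to pair samples. With the replicate number as a block, calls were 1 for chaetocin at 5 h, 7 at 12 h (PDIA3 lost, adjusted p = 0.165, limma), 0 over MeS-chaetocin at 5 h, 5 for chetomin over MeS-chetomin at 12 h and 0 for the interaction; over all genes, MeS-chetomin at 5 h went from 20 calls to 1149, none of them among the 10. Depth per library is unknown here.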
